A study of Mus musculus with 51 samples.

Results

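Of the 40468 autosomal H3K4me3 peaks of extra-embryonic ectoderm (ExE), 1305 were gene-linked and called in ExE alone. A peak was taken when the deposited ExE table linked it to a gene (within 10 kb), when it overlapped by at least 1 bp an ExE H3K4me3 peak called in B6/CAST embryos and one called in CAST/B6 embryos, and when it overlapped no epiblast H3K4me3 peak of either cross. The peaks were thus selected on wild-type H3K4me3 of both tissues, whose levels are given as a description with no test. They are set beside 17945 gene-linked peaks that were called in ExE in both crosses and overlapped an epiblast peak (shared peaks), and beside 616 ExE-only peaks with no gene within 10 kb. Requiring 500 bp of overlap left the number at 1305, and requiring that no epiblast peak lay within 5 kb left 1013.

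The chromatin came from mouse embryos at embryonic day 6.5, whose epiblast and ExE had been separated by hand, with 4 epiblasts or 8 ExE pooled for each sample. The wild-type embryos were F1 hybrids with 1 parent of the strain C57BL6/Babr (B6) and 1 of CAST/Ei (CAST), a strain of Mus musculus castaneus, and the mother is written first in B6/CAST and CAST/B6. In matDKO/CAST the fathers were CAST, and the mothers, of mixed B6 and 129 background, carried floxed alleles of the DNA methyltransferase genes Dnmt3a and Dnmt3b and a Zp3-cre transgene, which is active in growing oocytes. The egg thus lacked both enzymes, while the embryo received the CAST copies from its father. H3K4me3, H3K27me3 and H3K36me3 were each measured in 2 libraries per cross and tissue by ultra-low-input native ChIP-seq, with 15 input libraries beside them. In pools of dissected tissue, fewer cells that carry a mark and less of the mark per cell cannot be told apart.

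H3K4me3 is deposited at the start sites of active and poised genes, most broadly at CpG-rich promoters, and at lower levels at enhancers. H3K27me3 is laid down by Polycomb repressive complex 2 over silent developmental genes, and H3K36me3 is laid down over the bodies of genes that are being transcribed. The ExE is the trophoblast tissue next to the epiblast. It holds trophoblast stem cells, which depend on FGF signals from the epiblast and on transcription factors such as Cdx2, Eomes, Elf5 and Tfap2c, and it sends Bmp4 and the protease Pcsk6 back to the epiblast.

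The sequence of these peaks set them apart from the peaks around common promoters, so stretches of 3 ExE-only peaks are shown with 1 shared promoter as a contrast, with each CpG in capitals. The first 2 are the 250 bases before an annotated start site (GENCODE vM21, GRCm38) inside an ExE-only peak of high signal. They belong to Rapgef2, which encodes an exchange factor for the GTPase Rap1 (chr3:79181341-79181590, minus strand), and to Ppard, which encodes a lipid-activated nuclear receptor (chr17:28271458-28271707, plus strand). The third is the part of the RefSeq promoter of Cdx2 that lies before its start (chr5:147307250-147307499, minus strand, GRCm38), inside a shared peak. The last is the middle of the strongest 1 kb window of a peak in an intron of Nif3l1 (chr1:58458351-58458650, plus strand), which had a large tissue difference in matDKO/CAST.
Rapgef2: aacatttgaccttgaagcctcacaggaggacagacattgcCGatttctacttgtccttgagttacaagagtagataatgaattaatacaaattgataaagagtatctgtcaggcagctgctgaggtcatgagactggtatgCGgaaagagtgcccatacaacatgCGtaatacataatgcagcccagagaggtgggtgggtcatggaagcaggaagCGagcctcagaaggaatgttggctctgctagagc
Ppard: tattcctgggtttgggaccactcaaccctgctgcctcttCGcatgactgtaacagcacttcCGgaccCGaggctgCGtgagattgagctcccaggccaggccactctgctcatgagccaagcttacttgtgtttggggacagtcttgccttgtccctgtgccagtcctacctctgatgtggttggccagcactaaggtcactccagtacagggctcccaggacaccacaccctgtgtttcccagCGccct
Cdx2: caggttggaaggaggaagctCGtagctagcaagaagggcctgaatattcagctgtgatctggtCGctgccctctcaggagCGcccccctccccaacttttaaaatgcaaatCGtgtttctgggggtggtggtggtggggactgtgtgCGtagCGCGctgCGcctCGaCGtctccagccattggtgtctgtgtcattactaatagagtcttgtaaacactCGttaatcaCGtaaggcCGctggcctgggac
Nif3l1: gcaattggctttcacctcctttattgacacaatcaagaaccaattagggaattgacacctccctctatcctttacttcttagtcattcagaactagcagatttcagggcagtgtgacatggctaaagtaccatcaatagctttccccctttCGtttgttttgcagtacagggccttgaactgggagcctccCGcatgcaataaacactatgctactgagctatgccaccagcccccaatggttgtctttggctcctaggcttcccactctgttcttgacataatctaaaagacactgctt
Within their 250 bases the start sites of Rapgef2 and Ppard had 4 and 5 CpGs, while the Cdx2 stretch of the same length had 13. The 300 bases of Nif3l1 held 2, and its peak also held a start site of the gene.

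The low CpG content held across the ExE-only peaks. In the 1 kb window with the highest wild-type ExE H3K4me3 of each peak, the ratio of observed to expected CpGs had a median of 0.250 (quartiles 0.183 and 0.341), against 0.593 in shared peaks and 0.359 in all ExE peaks. Only 18 of the 1305 (1.38%) had a ratio above 0.6, a level usual for CpG islands, against 49.1% of shared peaks and 23.3% of all ExE peaks. Having a start site made little difference, since the 233 ExE-only peaks with one had a median of 0.248 and the 1072 without one 0.250. Shared peaks without a start site were lower than other shared peaks, with a median of 0.339 against 0.667, and 8.30% of them had a ratio above 0.6. The ExE-only peaks far from genes were low as well, with a median of 0.308 and 3.08% above 0.6. The median share of G and C was 47.9% in ExE-only and 55.9% in shared peaks. These are descriptions of the peaks, since the same ExE libraries placed the window.

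**Figure D1:**
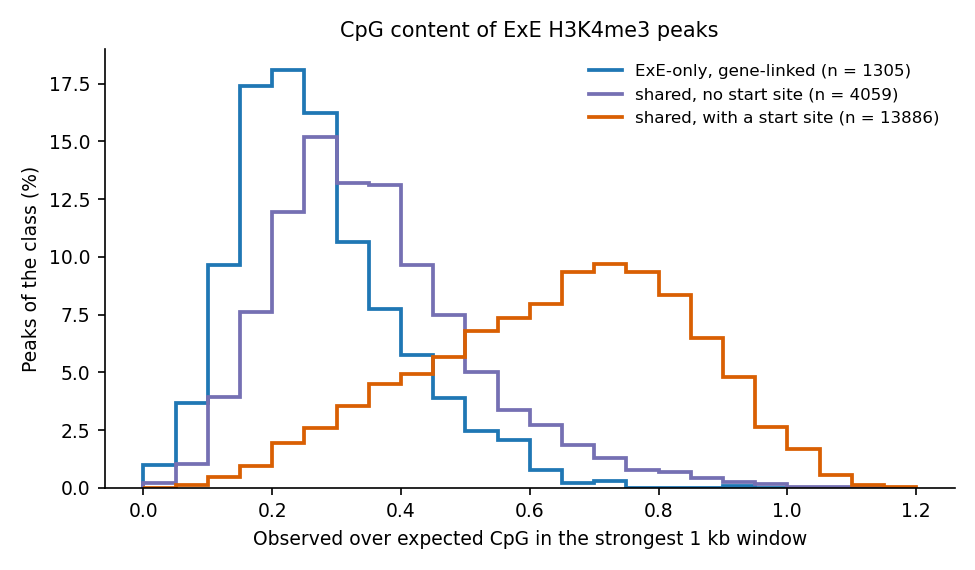
The share of peaks (vertical axis, percent of the class) is drawn against the ratio of observed to expected CpG in the strongest 1 kb window (horizontal axis, no unit) for 1305 ExE-only gene-linked peaks and for shared gene-linked peaks without (4059) and with (13886) an annotated start site. The ExE-only peaks centre near a ratio of 0.250, to the left of both shared classes, whose medians are 0.339 and 0.667.

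Most ExE-only peaks lay inside genes and away from start sites. The authors' table placed 1023 (78.4%) over a gene, 160 upstream and 122 downstream of one, and 90.7% of the peaks were linked to a protein-coding gene. The middle of the strongest window fell in an intron in 915 peaks (70.1%, against 46.4% of shared and 45.1% of all ExE peaks), between genes in 284, and in a coding exon, an untranslated exon or an exon of a noncoding transcript in 36, 34 and 36. An annotated start site lay in 233 peaks (17.9%), of which 175 held one of a protein-coding gene, while 77.4% of shared peaks held a start site. For the other peaks the nearest start site was a median of 8303 bp away. The peaks had a median length of 3000 bp (range 500 to 18000), against 4500 bp in shared peaks. They lay on every autosome, from 37 on chromosome 16 to 126 on chromosome 11. The longest lay over Rbpms, Ppap2b, Trak2, Tor1aip2 and Ppfibp2, and the Rbpms peak, at chr8:33874500-33892500, also held start sites of Rbpms and Gm26978.

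The peaks were linked to 1150 gene names, and 121 genes had 2 or more of them. Of the 1162 gene identifiers, 917 (78.9%) also had a start site in a shared peak, and 179 had neither a shared peak nor a start site in one. Thus most of the linked genes carried H3K4me3 at a start site in both tissues and an additional ExE peak elsewhere. Tead1, which encodes a partner of YAP in trophoblast, and Myo1e, a motor protein of the cell cortex, each had 5 ExE-only peaks, and 8 genes (Tcf7l2, Gnaq, Nedd4l, Mapk4, Ctdspl, Eftud1, Eif2c2 and Zbtb7c) had 3. Gm20388 had 7 and Fgfr2 5, but both have very long annotated spans. GENCODE vM21 runs Fgfr2 from 130162451 to 133123350 on chromosome 7, and 1 of its 5 peaks holds the start site of Htra1, so these links do not place a peak near the receptor gene itself.

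Repeats and short sequence words also differed from those of shared peaks. Repeat-masked bases made up a median of 17.7% of the strongest window, against 8.90% in shared and 12.8% in all ExE peaks, and passed 50% in 177 ExE-only peaks (13.6%), against 1.74% of shared, 7.69% of all and 34.7% of ExE-only peaks far from genes. Letters of 8 motifs were searched on both strands of the 1 kb windows. A GATA word (AGATAA) was found in 46.2% of ExE-only, 27.5% of shared and 38.0% of all ExE peaks, a TEAD word (GGAATG) in 51.0%, 37.4% and 42.7%, a T-box word (AGGTGT) in 51.0%, 39.0% and 43.8%, a CDX2 word (TTTATNG) in 37.0%, 24.6% and 32.5%, an ESRRB word (AAGGTCA) in 21.2%, 13.9% and 17.4%, and an ETS word (AGGAAG) in 78.9%, 72.1% and 75.2%. The order was the other way for the 2 words rich in G and C, which can overlap each other. TFAP2 (GCCNNNGGC) was found in 27.3%, 49.8% and 35.9%, and the word of KLF and SP factors (GGGCGG) in 352 of the 1305, 71.3% and 47.8%. Base composition differs between the classes as given above, and its part in these shares was not tested. In the stretches shown, Rapgef2 had the ETS, GATA, TEAD and ESRRB words, Ppard the ESRRB word, Cdx2 the TFAP2 and ETS words, and Nif3l1 the T-box and CDX2 words. In 111 RefSeq promoters (GRCm38, 300 bases) inside ExE-only peaks the KLF and SP word was found in 14.4% and the ETS word in 44.1%, against 62.3% and 32.1% of 16107 promoters inside shared peaks. No match says only that these letters are not in the stretch.

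Over the 1 kb windows the H3K4me3 libraries held 4710000 to 20790000 reads, the H3K27me3 libraries 3470000 to 24340000, the H3K36me3 libraries 2290000 to 14000000 and the inputs 8040000 to 99740000 (rounded). The tissue labels were checked on marker genes. In H3K4me3 at start sites, every wild-type ExE library was above every epiblast library at 3 of 8 ExE markers (Cdx2, Tfap2c and Bmp4) and below at 1, Esrrb, which was low in both tissues (means of 0.266 RPKM in ExE and 0.620 in epiblast), while the tissues overlapped at Elf5, Eomes, Ets2 and Gata3. Of 6 epiblast markers every ExE library was below at Pou5f1, Nanog, Fgf5 and Otx2, and the tissues overlapped at Utf1 and Dnmt3b. Over gene bodies, 7 of 8 ExE markers had higher H3K36me3 in ExE at an adjusted p below 0.05 (Eomes did not pass) and 4 of 5 epiblast markers tested had lower (Dnmt3b did not pass). None of these 14 markers was linked to an ExE-only peak, and all had a start site in a shared peak.

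The ExE-only peaks were weak. In the wild-type ExE libraries their median H3K4me3 was 1.26 and 0.966 RPKM (reads per kilobase, scaled to the depth of the library) in B6/CAST and 0.719 and 0.694 in CAST/B6, and in the epiblast libraries 0.354 and 0.324 in B6/CAST and 0.167 and 0.299 in CAST/B6. Shared peaks had medians of 3.85 to 6.02 in ExE and 4.99 to 6.73 in epiblast. The inputs had medians of 0.488 to 0.580 over the ExE-only peaks, with no gap between the tissues, so that the ExE libraries lay above the inputs and the epiblast libraries below them. The mean over the 4 ExE libraries ran from 0.284 to 3.84 RPKM. In 1040 peaks (79.7%) every wild-type ExE library was above every wild-type epiblast library, as in 18.9% of all ExE peaks, a count that the choice of the peaks shaped.

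**Figure D2:**
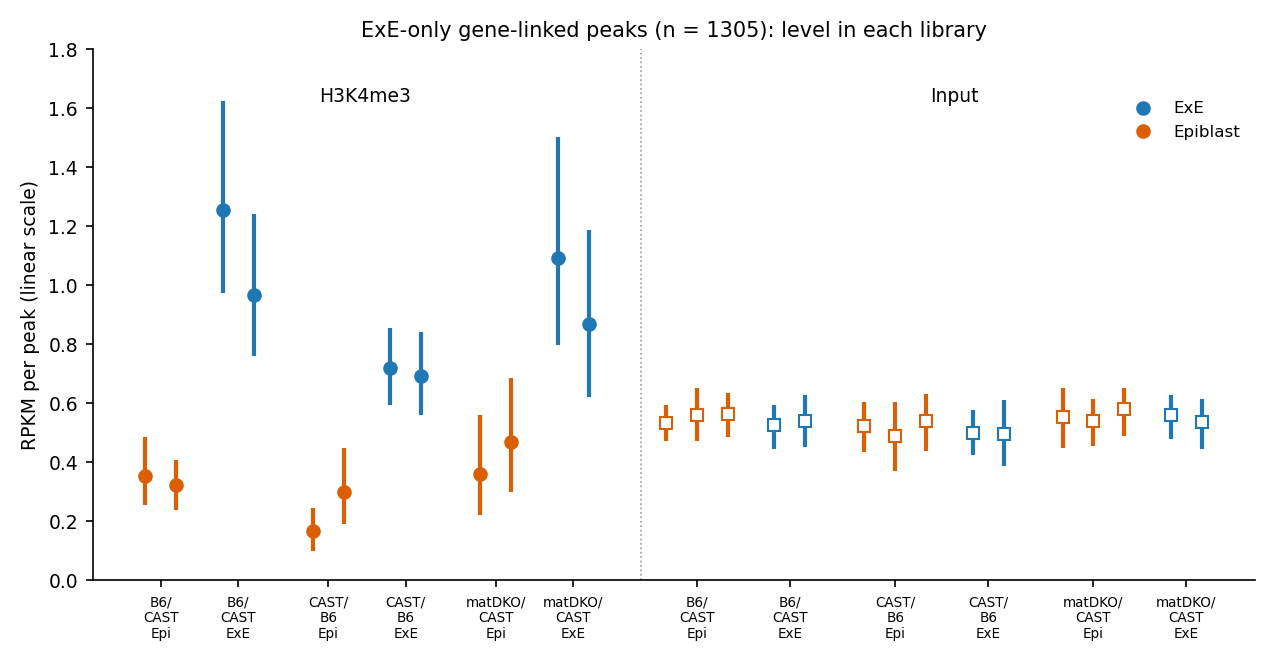
Median (symbol) and quartiles (bar) of RPKM over the 1305 ExE-only gene-linked peaks in each H3K4me3 library (filled circles) and each input library (open squares), by cross and tissue. The H3K4me3 medians are 0.694 to 1.26 in the 6 ExE libraries and 0.167 to 0.468 in the 6 epiblast libraries, and the inputs lie between 0.488 and 0.580 in both tissues.

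Among peaks with a start site, the highest wild-type ExE H3K4me3 was at an internal start of Rapgef2, shown above, with 4.11 and 2.67 RPKM in B6/CAST ExE and 1.83 and 1.57 in CAST/B6 ExE, against 0.876, 0.296, 0.152 and 0.149 in the epiblast libraries of the same order. At Ppard the ExE libraries had 2.71, 1.84, 1.56 and 1.26 RPKM and the epiblast libraries 0.392, 0.512, 0.253 and 0.560. At Bcl2l10, of the BCL2 family, the ExE values were 2.55, 2.45, 0.594 and 1.51, and the epiblast values 0.503, 0.375, 0.114 and 0.560. In these 3 peaks each ExE library was above each epiblast library, and the B6/CAST libraries were the higher ones in ExE. The other high peaks with a start site were linked to Lrrc20, Heatr7b1 (start site of Mroh2a), Zbtb8b, Map3k2 (start site of Gm26717) and Cdk14. Close to the limit of the rule, the ExE-only peaks of Csrp2bp, Shb and Ubxn11 abutted an epiblast peak without overlap. Csrp2bp had 0.765, 0.851, 0.896 and 0.842 RPKM in the ExE libraries and 0.336, 0.387, 0.304 and 0.747 in epiblast, and in Ubxn11 1 epiblast library (0.840) was above 3 of the ExE libraries. The peaks of Sntg1, Pkhd1 and Tmem131 overlapped an epiblast peak by 500 bp and were left out. Sntg1 had 2.27, 1.73, 1.47 and 1.85 RPKM in the ExE libraries against 0.671, 0.580, 0.038 and 0.560 in epiblast, a wider gap than in the 3 peaks that abutted one.

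Whether the tissue difference was also seen in embryos that had no part in choosing the peaks was asked in matDKO/CAST. H3K4me3 was higher in ExE than in epiblast at 395 of the 1305 ExE-only peaks (30.3%), against 8.10% of all 40468 peaks, and lower at none, against 12.2% of all peaks (limma on log2 of RPKM + 0.5, adjusted p below 0.05 over all peaks). At an unadjusted p below 0.05 the counts were 677 and 0, and with edgeR on reads recovered from the RPKM 523 and 0. The median difference was 0.68 on the log2 scale, where the added 0.5 RPKM understates low levels, and edgeR gave a median of 1.25. The median of all peaks was 0.10 and of shared peaks -0.02. The difference was above 0 in 94.9% of the ExE-only peaks, and in 998 (76.5%) both ExE libraries were above both epiblast libraries, against 32.1% of all peaks. In 6 (0.460%) both were below, against 24.4% of all peaks. Peaks with a start site (73 of 233 higher) and without one (322 of 1072) were called in similar shares, 31.3% and 30.0%. The ExE-only peaks far from genes also rose, with 146 of 616 higher (23.7%), 3 lower and a median of 0.57. Their difference was above 0 in 92.7%, and both ExE libraries were above both epiblast libraries in 67.5%. The rise was thus not particular to gene-linked peaks.

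With 1 of the 4 libraries left out, a single library of that tissue remains, and the spread comes from the pair of the other tissue alone. In this reduced design, without either matDKO/CAST ExE library no peak of the 40468 was called by limma, although 356 (without replicate 2) and 621 (without replicate 3) ExE-only peaks had an unadjusted p below 0.05 with ExE higher and the median difference stayed at 0.56 and 0.81. Without epiblast replicate 1 or 2 the count was 143 or 160.

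**Figure D3:**
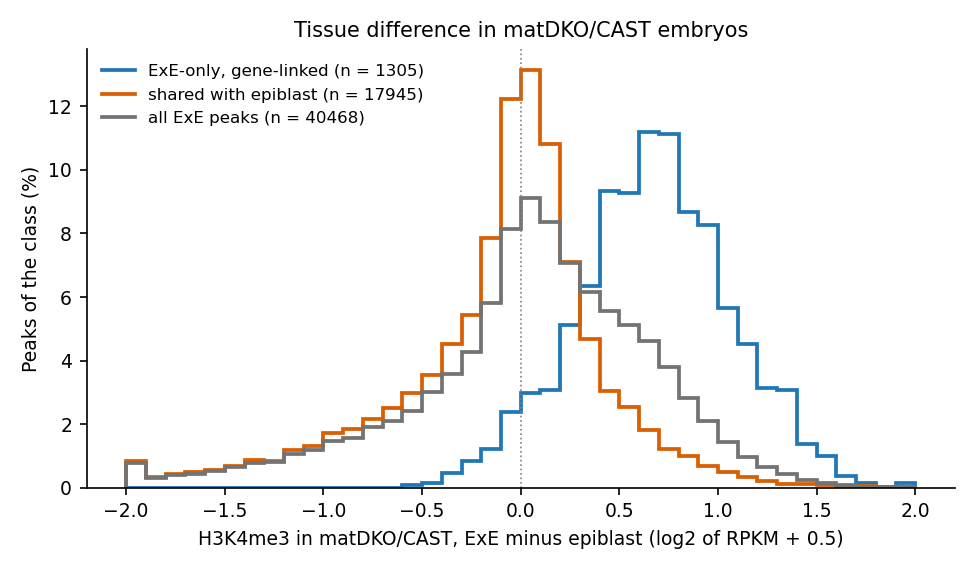
The share of peaks (vertical axis, percent of the class) is drawn against the H3K4me3 difference between ExE and epiblast in matDKO/CAST (horizontal axis, log2 of RPKM + 0.5, 2 libraries per tissue, outermost bins hold all values beyond them). The ExE-only peaks centre at 0.68 and have 94.9% of their values above 0, while shared peaks centre at -0.02.

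On this scale the 5 largest rises in matDKO/CAST were at Stox1, Kdm2b, Ddx58, Nif3l1 and a Gm20388 peak. At the Stox1 peak, in a gene for a winged-helix protein, the epiblast libraries had 0.582 and 0.250 RPKM and the ExE libraries 4.06 and 2.31, a difference of 1.99 ± 0.31 (SE, n = 2 per tissue, adjusted p = 5.67e-09). At Kdm2b, which encodes a histone demethylase that binds CpG islands, epiblast had 0.249 and 0.083 and ExE 1.97 and 2.14, a difference of 1.95 ± 0.34 (adjusted p = 4.45e-07). At Ddx58, the gene of the RNA sensor RIG-I, epiblast had 0.457 and 0.125 and ExE 2.01 and 2.25, a difference of 1.77 ± 0.34 (adjusted p = 4.02e-06). Both ExE libraries were above both epiblast libraries of matDKO/CAST at these 3 peaks. Nif3l1 and Gm20388 differed by 1.72 ± 0.34 and 1.67 ± 0.35. Of the 8 high peaks with a start site, 6 passed in matDKO/CAST, of which only Rapgef2 still passed without epiblast replicate 1, and the Cdk14 call (adjusted p = 0.0253) was also lost in edgeR (adjusted p = 0.136). Rapgef2 had 0.360 and 0.915 RPKM in epiblast and 2.61 and 3.05 in ExE (1.59 ± 0.30, adjusted p = 3.26e-06), and Ppard had 0.665 and 0.998 against 2.02 and 2.20 (0.98 ± 0.30, adjusted p = 0.010). Bcl2l10, with 0.998 and 0.873 against 1.33 and 2.43 (adjusted p = 0.0933), and Zbtb8b (adjusted p = 0.0620) did not pass.

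Of all protein-coding genes of at least 2 kb, 5.33% were linked to an ExE-only peak in the authors' table. This is the share to set beside the gene lists. Its measure is narrower in that Trf was counted in a list through its start site, in a peak linked to Gm20425. In a list of 40 trophoblast transcription factors, the 34 on autosomes were each linked to a shared peak and only Tcf7l1, a TCF factor that mostly represses Wnt targets, was also linked to an ExE-only peak. In that intronic peak (chr6:72732500-72742500) the wild-type ExE libraries had 2.10, 1.55, 0.807 and 0.796 RPKM and the epiblast libraries 0.30, 0.366, 0.104 and 0.265. In matDKO/CAST epiblast had 0.310 and 0.386 and ExE 1.73 and 1.60, without overlap (1.35 ± 0.34, adjusted p = 0.000933). Without ExE replicate 2 or 3, where no peak at all was called, the difference was 1.31 or 1.39. None of 40 genes of placental function was linked to an ExE-only peak, and 17 were linked to a shared one.

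Of 40 genes of ExE signalling, 5 had an ExE-only peak, and 39 were linked to a shared one. Wnt7b, a Wnt ligand needed for the chorion, had a peak in its body (chr15:85537000-85548000) with 2.50, 1.71, 0.949 and 0.995 RPKM in wild-type ExE and 0.320, 0.446, 0.062 and 0.183 in epiblast. In matDKO/CAST it had 0.340 and 0.817 in epiblast and 1.64 and 1.78 in ExE (1.07 ± 0.33, adjusted p = 0.00949). Its call was lost without epiblast replicate 1 and, like all calls, without either ExE library. The intronic peak of Egfr, the EGF receptor gene, had 0.067 and 0.100 in matDKO/CAST epiblast and 0.790 and 0.617 in ExE (1.04 ± 0.33, adjusted p = 0.0120). Among the 5 peaks linked to Fgfr2 (see its long annotation above) 1 passed, at chr7:130749500-130752000 (1.01 ± 0.33, adjusted p = 0.0163), and the one starting at 130980500 had an adjusted p of 0.0737 and passed in edgeR (0.0422). The Egfr call and the Fgfr2 call were lost when any 1 of the 4 libraries was left out (adjusted p of 0.0845 to 0.208 and 0.0637 to 0.264). Pcsk6, with 0.166 and 0.250 in epiblast and 0.744 and 0.617 in ExE, missed the threshold in limma (adjusted p = 0.106) but passed in edgeR (adjusted p = 0.0327) and with all 12 H3K4me3 libraries in the fit (adjusted p = 0.0265). No call was made at the peak of the activin receptor gene Acvr2b (0.471 and 0.665 against 0.709 and 0.672, adjusted p = 0.811).

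Of 40 epithelial genes, Ocln, Tjp1, Spint2 and Elf1 were linked, and only Elf1, an ETS factor, passed in matDKO/CAST (0.98 ± 0.34, adjusted p = 0.0272). Markers of neighbouring tissues were present as well. Of 35 visceral endoderm genes, 5 were linked, among them Afp and Trf, the genes of alpha-fetoprotein and transferrin, and the endocytic receptor genes Lrp2 and Dab2. The fifth, the Wnt inhibitor gene Dkk1, passed (0.083 and 0.166 RPKM in matDKO/CAST epiblast, 0.734 and 0.593 in ExE, 0.90 ± 0.33, adjusted p = 0.0367), and the peaks of the other 4 had adjusted p values of 0.0998 to 0.347. Of 15 parietal endoderm genes Sparc, Lama1 and Col4a1 were linked, of 30 epiblast genes Dppa4, and of 24 genes of decidua and blood Pecam1, with no call among them in matDKO/CAST.

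A region called for H3K27me3 in both crosses overlapped 28 of the gene-linked ExE-only peaks (2.15%) in epiblast and 176 (13.5%) in ExE. The shares were 32.3% and 45.9% of shared peaks and 18.8% and 34.6% of all ExE peaks. The ExE-only peaks far from genes had such a region in 2.60% and 15.6%. With regions called in only 1 cross counted too, 1043 of the gene-linked ExE-only peaks had none in either tissue. In wild-type embryos the H3K27me3 level was higher in ExE at 61 (4.67%) and lower at 29 (2.22%), against 8.14% and 7.86% of all peaks, with a median difference of -0.02, as for all peaks. A filter at a mean of at least 0.5 RPKM, which a high level in 1 tissue helps to pass, left 225 ExE-only peaks. Of these 69 were higher and 8 lower. Of all 15503 peaks past the same filter, 6583 were called in either direction, with no split to set beside the 69 and 8. In matDKO/CAST 15 were higher and 6 lower, against 2.10% and 1.42% of all peaks. Counts depended on the fit, since B6/CAST alone gave 8 and 1, CAST/B6 alone 19 and 4, and edgeR 100 and 68. No difference between the crosses was called by limma at an ExE-only peak, with 26 at an unadjusted p below 0.05 for CAST/B6 against B6/CAST and 71 for matDKO/CAST against B6/CAST.

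**Figure D4:**
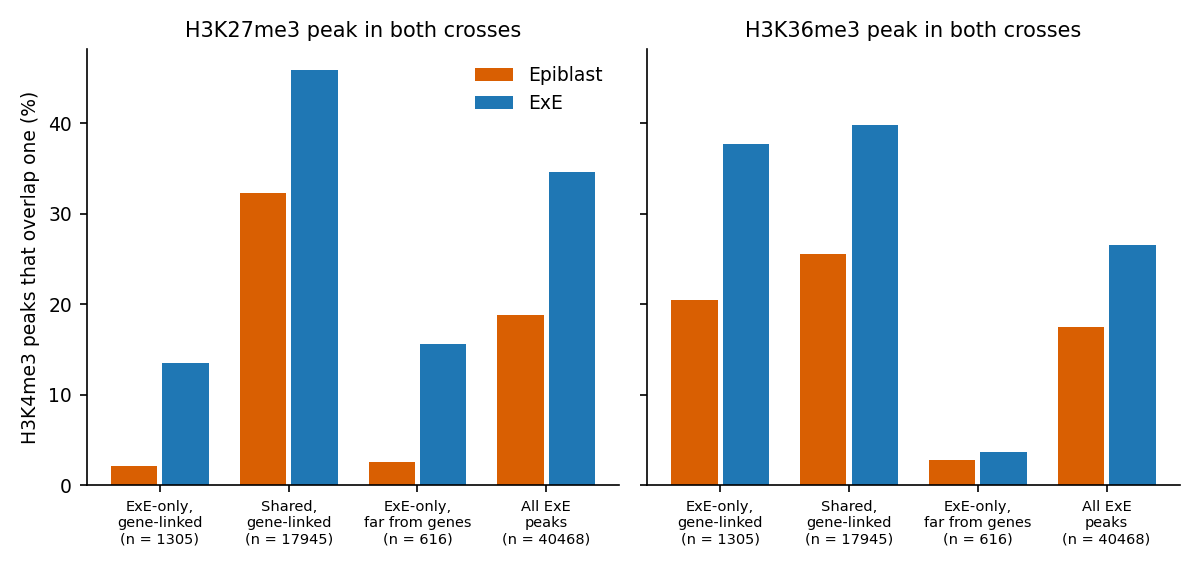
Share of H3K4me3 peaks (bars from 0, percent) that overlap a region called in both wild-type crosses for H3K27me3 (left) or H3K36me3 (right), in epiblast and in ExE, by class of H3K4me3 peak. The ExE-only gene-linked peaks overlap H3K27me3 in 2.15% (epiblast) and 13.5% (ExE), below the 32.3% and 45.9% of shared peaks, and overlap H3K36me3 in 20.5% and 37.8%, near the 25.6% and 39.9% of shared peaks.

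The largest H3K27me3 rise on the same scale was in an intron of Mapk4, the gene of an atypical MAP kinase (chr18:73983000-73985000). Its epiblast libraries had 0.444, 0.385, 0.270 and 0.421 RPKM and its ExE libraries 1.49, 1.45, 1.48 and 1.73, a difference of 1.21 ± 0.16 (SE, n = 4 per tissue, adjusted p = 8.27e-05). It also rose in matDKO/CAST (1.32, adjusted p = 0.00532), and its H3K4me3 rose there too (1.04 ± 0.33, adjusted p = 0.0113). The peak that holds a Trf start site and is linked to Gm20425 had 0.703, 0.660, 0.708 and 0.608 in epiblast and 2.08, 1.55, 1.75 and 1.56 in ExE (0.93 ± 0.14, adjusted p = 0.000233). Camkk1, Ccr6 and a Gm20388 peak with Cbfa2t3 start sites followed with 0.91, 0.90 and 0.86. Bcl2l10 and Kdm2b were also higher, by 0.66 and 0.40 (adjusted p = 0.00788 and 0.0314). The falls change order with the scale. The largest on log2 of RPKM + 0.5 was over the protocadherin gene Pcdhb17, with 5.62, 6.54, 6.27 and 6.08 RPKM in epiblast and 3.54, 3.07, 4.15 and 3.40 in ExE (-0.72 ± 0.15, adjusted p = 0.00328). At the start of Aspa, the aspartoacylase gene, epiblast had 1.01, 1.26, 0.934 and 0.896 and ExE 0.391, 0.630, 0.362 and 0.340 (-0.72 ± 0.15, adjusted p = 0.00316). The peak with the Tnnt3 start site and those of D5Ertd579e and Pde7a fell by 0.64, 0.57 and 0.56 on the log2 scale. In edgeR the Tnnt3 peak (Gm14492) and Pde7a fell most of these 5, by 1.99 and 1.92, and Pcdhb17 least, by 0.75. The D5Ertd579e call was lost with a pseudocount of 0.1 (adjusted p = 0.0656) and when any 1 of the 8 libraries other than B6/CAST epiblast replicate 1 was left out, most of all without B6/CAST epiblast replicate 2 (-0.36, adjusted p = 0.234). In matDKO/CAST the 5 changed by -1.01 (Pcdhb17), -0.71 (Aspa), -0.77 (Gm14492), -0.04 (D5Ertd579e) and -0.44 (Pde7a), of which Pcdhb17 and Gm14492 passed. Tissues did not overlap at Mapk4, Trf, Pcdhb17 and Aspa.

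A region called for H3K36me3 in both crosses overlapped 268 ExE-only peaks (20.5%) in epiblast and 493 (37.8%) in ExE, against 25.6% and 39.9% of shared peaks and 17.5% and 26.6% of all ExE peaks. H3K36me3 was then measured over the bodies of the linked genes, of which 1096 were at least 2 kb long. It was higher in wild-type ExE in 476 of them (43.4%) and lower in 69 (6.30%), against 22.6% and 6.38% of all 30244 genes, with a median difference of 0.18 against 0.04 for all genes. Genes linked only to shared peaks were close to them, with 4333 of 11438 higher (37.9%) and a median of 0.17, and genes with neither kind of peak had 2038 of 17710 higher (11.5%). Within the linked genes, those with a start site in a shared peak had 459 of 910 higher and 64 lower, and those without one 17 of 186 higher and 5 lower, so nearly all calls were on genes whose promoter was marked in both tissues. In matDKO/CAST 186 were higher and 2 lower, against 7.03% and 1.39% of all genes. CAST/B6 alone gave 55 higher and 8 lower, B6/CAST alone 462 and 72, and edgeR 445 and 178, while the difference between the 2 crosses was called for none of these genes by limma (smallest adjusted p = 0.0559, and 399 of 1096 at an unadjusted p below 0.05).

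The largest rise was over Abcc2, which encodes an export pump for organic anions, with 0.536, 0.465, 0.518 and 0.464 RPKM in the epiblast libraries and 1.79, 1.81, 1.40 and 1.70 in ExE (1.12 ± 0.08, adjusted p = 0.000686). Ctsh, for the protease cathepsin H, had 0.630, 0.587, 0.646 and 0.586 against 2.22, 2.08, 1.42 and 1.74 (1.08 ± 0.10, adjusted p = 0.000826). Arid5b, Dgat2 and Tgm1, which encode a DNA-binding protein, an enzyme of triglyceride synthesis and a transglutaminase, rose by 0.96, 0.80 and 0.79. Of these 5, Abcc2, Ctsh, Arid5b and Dgat2 also rose in matDKO/CAST (adjusted p = 0.0164 to 0.0181), and Tgm1 had an adjusted p of 0.0511 there. The largest fall was over Ina, for the neuronal filament protein internexin, with 1.24, 1.01, 1.69 and 1.55 in epiblast and 0.364, 0.669, 0.764 and 0.584 in ExE (-0.77 ± 0.11, adjusted p = 0.00228). Fads2, Mapk4, Zscan10 and Fam50b fell by 0.63, 0.53, 0.53 and 0.51 on the log2 scale. The Zscan10 call was lost when any 1 of the 8 libraries was left out, except B6/CAST epiblast replicate 2 and CAST/B6 ExE replicate 2 (adjusted p of 0.0624 to 0.114). Mapk4 thus had 3 ExE-only H3K4me3 peaks while H3K36me3 over its body was lower in ExE. Of the trophoblast and signalling list genes with an ExE-only peak, Pcsk6 (0.37 ± 0.06, adjusted p = 0.00461) and Wnt7b (0.54 ± 0.14, adjusted p = 0.0227) rose, Tcf7l1 fell by 0.30 on the log2 scale (adjusted p = 0.0386), and Egfr, Fgfr2 and Acvr2b did not pass. The epithelial genes Elf1, Spint2, Ocln and Tjp1 rose by 0.48, 0.33, 0.26 and 0.16, and Dppa4, of the epiblast list, rose by 0.41 (adjusted p = 0.0267), while Dkk1 and Pecam1 did not pass.

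Visceral endoderm, an epithelium that wraps both tissues, moved with the H3K36me3 result. Of 32 genes of its list tested, 26 had higher H3K36me3 in ExE and 2 lower, with a median of 0.66, and their summed level was 17.7 to 23.9 RPKM in the wild-type epiblast libraries and 35.4 to 47.8 in ExE. Their summed H3K4me3 at start sites was 272 to 398 RPKM in epiblast and 311 to 447 in ExE, with overlap, and none of the list was at 0. Among the linked genes Lrp2, Afp and Dab2 rose by 0.73, 0.61 and 0.62, as did Sparc, Col4a1 and Lama1 of the parietal endoderm list by 0.63, 0.49 and 0.47. The parietal list had 8 of 15 higher and 1 lower, with summed levels of 9.33 to 13.8 and 14.1 to 16.5. The list of decidua and blood had 0 of 17 higher and 1 lower, with 6.39 to 7.18 and 5.56 to 9.44. Of the other lists, all chosen with these data known, trophoblast transcription factors had 20 of 34 higher and 1 lower (median 0.42), ExE signalling 17 of 39 and 6 (0.25), placental function 7 of 37 and 1 (0.00), epithelial genes 22 of 37 and 1 (0.29), and epiblast genes 4 of 27 and 8 (-0.10). The part of visceral and parietal endoderm in the results for ExE-only peaks was not tested.

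For the parental alleles, 741 of the 1305 peaks were informative, with at least 20 reads in 1 allele column of a wild-type library, and 564 were not. The median was 16 reads per allele column, against 46 over all informative peaks, and so only large biases were detectable. None of the 741 was imprinted, that is, biased to the same parent in both crosses by edgeR at an adjusted p below 0.05, against 0.319% of all informative peaks (0.190% paternal and 0.129% maternal). DESeq2 gave 0 as well, as did edgeR with the library as a block over its maternal and paternal column, and at an unadjusted p below 0.05 in both crosses 2 were paternally and 0 maternally biased. A fit over both crosses together, which called 0.431% of all informative peaks as paternal and 0.280% as maternal, called 1, at Smoc1, the gene of a secreted calcium-binding protein (chr12:81032000-81036500). There the paternal columns had 37 and 26 reads and the maternal columns 3 and 10 in B6/CAST. In CAST/B6 they had 15 and 13 against 6 and 7. That fit gave 1.65 toward the paternal allele on the log2 scale (adjusted p = 0.00256), while CAST/B6 on its own did not pass (adjusted p = 0.243). In matDKO/CAST the paternal columns had 13 and 20 reads and the maternal columns 7 and 2 (2.05 in edgeR, adjusted p = 0.167). The paper names Smoc1 among genes with placental-specific imprinting.

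Bias by strain was found at 24 peaks (3.24%, against 3.96% of all informative peaks), with the B6 allele higher at 17 (2.24% of all) and the CAST allele at 7 (1.71% of all). These shares are near the background. The calls varied with the method, from 0 and 1 with DESeq2 to 64 and 64 in the fit of both crosses together. The strongest bias to B6 was in the peak linked to Trub1, which holds the start site of Gm26874 (chr19:57461000-57463500). B6/CAST had 76 and 31 maternal (B6) reads and 0 and 3 paternal reads, and CAST/B6 had 2 and 1 maternal and 21 and 9 paternal (B6) reads. The peaks of D15Ertd621e and BC067068 followed. The strongest bias to CAST was in an intron of Fgl1, of the fibrinogen-like family (chr8:41205000-41207500), with 63 and 40 paternal (CAST) and 3 and 1 maternal reads in B6/CAST, and 2 and 1 paternal and 11 and 19 maternal (CAST) reads in CAST/B6. A peak downstream of Wap, the milk protein gene, and one in Hmbox1, a homeobox gene, followed. The Trf peak (Gm20425) was among the 17 with B6 higher.

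In matDKO/CAST the same strain was higher at 23 of the 24, and the Trub1 peak had no allele reads there. Of the 23, 7 passed on their own at an adjusted p below 0.05 (D15Ertd621e, BC067068, Pid1, Slc39a11, the Trf peak, Fgl1 and Wap). These 23 were chosen for a strain bias in wild type. Of all 741 informative ExE-only peaks, 6 passed with B6 and 5 with CAST higher in matDKO/CAST (0.810% and 0.675%), against 1.78% and 0.978% of all informative peaks. With the library as a block over its maternal and paternal column, 16 of the strain-specific peaks passed in place of 7. The bias of none differed between matDKO/CAST and B6/CAST in edgeR (smallest adjusted p = 0.660, and 2 of the 24 at an unadjusted p below 0.05).

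**Figure D5:**
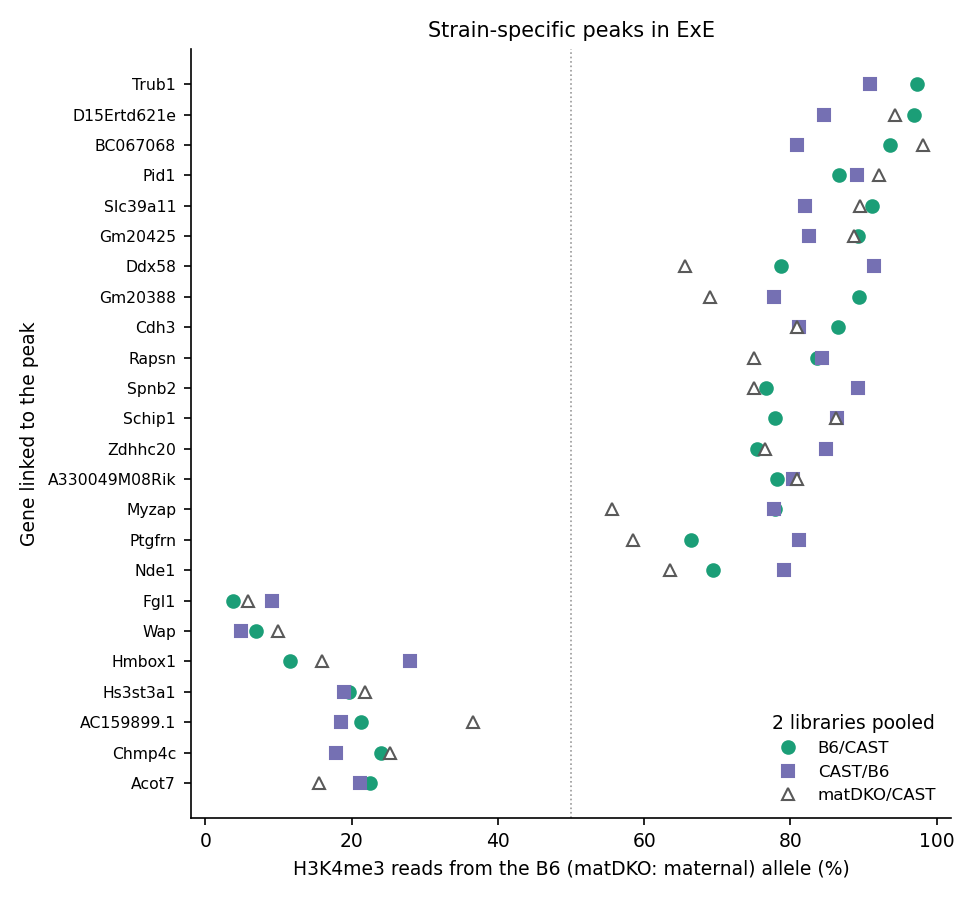
Percent of H3K4me3 allele reads from the B6 allele (horizontal axis; the maternal B6 or 129 allele in matDKO/CAST) at the 24 strain-specific ExE-only peaks, with the 2 libraries of each cross pooled. The 17 peaks at the top lie above 50% and the 7 at the bottom below 50% in all crosses with reads, and the matDKO/CAST points of Myzap and Ptgfrn are closest to 50% among the upper ones.

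The regions of the other marks that overlapped ExE-only peaks had more reads. Informative H3K27me3 regions had a median of 177 reads per allele column, against 47 over all informative regions. For H3K36me3 the medians were 165 and 61. Smaller biases were thus detectable in these regions, so the shares below compare sets of unequal depth. Of 247 H3K27me3 regions, 232 were informative, and 5 (2.16%) were higher on the paternal allele in both crosses, against 1.12% of all, and none on the maternal allele, against 0.226% of all. Among them were broad regions that took in the ExE-only peaks of Syt8, Dnahc17, Ccr6 and Igf2r. At Igf2r a region of 349 kb (chr17:12372500-12721500) had 5870 and 4312 paternal and 889 and 672 maternal reads in B6/CAST, and 8664 and 4715 against 984 and 643 in CAST/B6. The ExE-only H3K4me3 peak at its edge, at chr17:12720500-12725500, had 63 and 27 paternal and 45 and 25 maternal reads in B6/CAST and 24 and 11 against 22 and 10 in CAST/B6, and passed in neither cross (adjusted p = 0.366 and 0.944). The peak of Syt8 did not pass either, and those of Dnahc17 and Ccr6 were not informative. By strain, 8 H3K27me3 regions (3.45%) were higher on the B6 and 12 (5.17%) on the CAST allele, against 2.07% and 2.26% of all (4.32% together). These counts fell to 4 and 2 with DESeq2, and to between 4 and 6 and between 3 and 8 when each library was left out. Of 557 informative H3K36me3 regions over ExE-only peaks, the one at Smoc1 was paternal (76 and 42 against 37 and 34 reads in B6/CAST, 59 and 54 against 23 and 18 in CAST/B6), as were 0.213% of all, and 0.251% were biased to either parent. The region at Pid1 was higher on the B6 allele, like its H3K4me3 peak, and those at Gstcd, Prom1, Fgfr2, Ces2b and Pls1 on the CAST allele (0.551% of all for each strain, 1.10% together).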

How the data were processed

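Chromatin of pooled embryos was compared in 51 libraries. Per the methods and the submitters' processing notes, reads were trimmed with Trim Galore (0.4.4 in the notes, a different version in the methods), aligned with Bowtie2 2.3.2 to GRCm38 with B6 and CAST variants masked, and assigned to a parent where they covered a variant. For matDKO/CAST, reads that a second alignment gave to 129 joined the maternal ones, with no such step for paternal reads. The authors called peaks with chromstaR, 1 list per wild-type cross, tissue and mark over both replicates, and the score in the deposited lists is 0 throughout and was not used. The deposited allelic tables hold raw read counts per peak and parent. The authors also deposited RPKM of every library, counted over consecutive 1 kb windows on the 19 autosomes and not normalized to input. RPKM values of up to 50 reads were whole multiples of the value of 1 read within 0.05 reads (100% of them in each library), which gave reads and depth. Coordinates are those of the deposited tables, in steps of 500 bp.

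The windows of a peak, or of a gene of at least 2 kb (GENCODE vM21), were averaged, and limma 3.58.1 (trend) was fitted to log2 of RPKM + 0.5, for H3K4me3 to the 4 matDKO/CAST libraries and for the other marks to all 12 libraries with group means, averaging the tissue difference over both wild-type crosses. Alleles were compared per cross with edgeR 4.0.16 (quasi-likelihood, TMM), and DESeq2 1.42.0 was an alternative. Tests were two-sided, adjusted by Benjamini-Hochberg over all peaks or genes, and tested on simulated data (R 4.3.3, Python 3.11.15). Maternal and paternal columns pair within a library. Across tissues, equal replicate numbers did not pair the samples. Replicates are pools of embryos, so p-values measure the spread between pools. Genes were named by fixed rules, namely the genes of 3 ExE lists, the 8 strongest peaks with a start site, the 5 largest changes in each direction, the 3 strongest biases per strain, the 5 longest peaks and the 3 peaks on each side of the limit, and list genes linked to a peak. Genes named for their number of peaks, and those named for an allelic call in another mark or in matDKO/CAST, were chosen after their values were seen. The peaks, lists and rules were chosen with earlier results of these data known. Epiblast allelic tables were not used here. Some items are not reported here.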

Additional observations from a re-analysis of the deposited data

Results flagged for a closer look

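The parental difference of 6 regions that overlap ExE-only peaks changed between matDKO/CAST and B6/CAST ExE, by the edgeR test of the difference itself over all informative regions of the mark. Values are log2 of paternal over maternal reads, matDKO/CAST minus B6/CAST.

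For H3K27me3, the region at Igf2r (chr17:12372500-12721500) changed by -2.60 (adjusted p = 1.29e-30). Maternal reads made up 13.3% of 11743 in B6/CAST and 10.8% of 15006 in CAST/B6, and 51.5% of 11792 in matDKO/CAST. The region at Ccr6 (chr17:8223000-8286500) changed by -0.73 (adjusted p = 0.00500), from 33.6% and 37.9% to 48.9%, and that at Syt8 (chr7:142388500-142487000) by -0.61 (adjusted p = 0.0291), from 32.1% and 34.4% to 45.1%. At Syt8 the paternal allele was still higher in matDKO/CAST (adjusted p = 0.00799). The paternal region at Dnahc17 changed by -0.19 (adjusted p = 0.894).

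For H3K36me3, 3 regions with no parental call in B6/CAST or CAST/B6 had more maternal reads in matDKO/CAST. The region over Casc4 and the ExE-only peak of Mageb3 (chr2:121868000-122122000) changed by -0.88 (adjusted p = 0.000420), from 48.9% maternal in B6/CAST to 64.9%. The region over Cep250 and Ergic3 (chr2:155957000-156022500) changed by -1.18 (adjusted p = 0.00766), from 48.6% to 69.0%. The region over Lass5 and Lima1 (chr15:99737500-99889500) changed by -0.83 (adjusted p = 0.00766), from 49.5% to 64.5%. In matDKO/CAST a second alignment adds maternal reads alone, and its part in these values was not tested.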

How the results depend on the processing

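The H3K4me3 rise in matDKO/CAST kept its direction throughout. With all 12 H3K4me3 libraries in the fit 596 ExE-only peaks were higher, and leaving out each library gave 0 to 160 higher and 0 lower. No paired analysis was possible because the matDKO/CAST epiblast and ExE H3K4me3 libraries share only 1 replicate number. For H3K27me3 (61 higher, 29 lower) edgeR gave 100 and 68, B6/CAST alone 8 and 1, CAST/B6 alone 19 and 4, a filter at a mean of 0.5 RPKM 69 and 8 of 225, the replicate block 95 and 60, and leaving out each library 21 to 56 and 8 to 34. For H3K36me3 (476 and 69) CAST/B6 alone gave 55 and 8, the replicate block 120 and 9, the filter 484 and 40 of 684, edgeR 445 and 178, and leaving out each library 351 to 467 and 24 to 49. Past the filter 6583 of all 15503 peaks (H3K27me3) and 8186 of all 12553 genes (H3K36me3) were called in either direction. Same-numbered libraries deviated together by correlations of 0.109 and 0.0411 for H3K27me3 and 0.167 and 0.0657 for H3K36me3 in B6/CAST and CAST/B6. For H3K4me3 alleles (0 imprinted, 17 B6, 7 CAST) DESeq2 gave 0 B6 and 1 CAST, no filter 28 B6, 20 reads in each cross 8 and 3, the joint fit 64 and 64 and 1 imprinted, and leaving out each library 2 to 11 B6, 2 to 6 CAST and 0 imprinted. Of the biases kept in matDKO/CAST (7), an adjusted p below 0.01 and DESeq2 each left 3, the library as a replicate block gave 16, and leaving out each library 7 to 9. For H3K27me3 alleles (5 imprinted, 8 B6, 12 CAST) DESeq2 gave 4 B6 and 2 CAST, the joint fit 30 imprinted, 30 B6 and 41 CAST, and leaving out each library 4 to 5, 4 to 6 and 3 to 8. The causes were not tested. Among single named peaks and genes, 478 values under an alternative stayed on the same side of the threshold, 70 lost a call, 6 gained one and none reversed. Low read numbers limit the allelic results, since 564 of the 1305 peaks were not informative.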
